A study of Mus musculus with 19 samples.

Results

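Presynaptic release rests on a compact set of proteins, and the 46 genes described here encode its core: the SNARE proteins, the calcium sensors, the complexins, the membrane proteins of the synaptic vesicle, the vesicular glutamate transporters, the synapsins and Rab3 GTPases, the active zone scaffold and part of the endocytic machinery. Members were taken by gene symbol, each was found on a single row of the count table (46 of 55416 genes), and all 46 were among the 19234 genes with enough reads to be tested. The data are RNA-seq read counts from the right hippocampus of C57BL6 mice, taken 4 days after the induction of status epilepticus (a prolonged seizure state) by repeated low doses of kainate, a glutamate receptor agonist, or 4 days after saline. The groups were EZH2nHom kainate (EZH2(-/-);Syn1Cre(+/-) with kainate, n = 4), EZH2nHom saline (the same genotype with saline, n = 5), WT kainate (EZH2(+/+);Syn1Cre(+/-) with kainate, n = 5) and WT saline (the same wild-type genotype with saline, n = 5). All 19 mice therefore carried the Synapsin1-Cre driver, which removes floxed EZH2 in neurons, so that glia and vessels of the EZH2nHom tissue keep the gene. EZH2 is the methyltransferase of Polycomb repressive complex 2, which deposits the repressive mark H3K27me3.

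At a nerve terminal, vesicles filled with transmitter are tethered and primed at the active zone by RIM, RIM-binding protein, Munc13, Bassoon and Piccolo, and fuse when vesicular synaptobrevin zips up with syntaxin and SNAP-25 on the plasma membrane. Synaptotagmins sense the calcium that triggers fusion, complexins clamp and activate the assembled SNARE complex, NSF and its adaptors take the spent complex apart, and dynamin, amphiphysin and synaptojanin retrieve the membrane. In the hippocampus these proteins serve the mossy fibre, Schaffer collateral and perforant path terminals as well as the terminals of interneurons, while their mRNAs sit mostly in the cell bodies.

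Values are given as CPM (reads of a gene scaled to a common library total) after trimmed-mean (TMM) scaling of the library totals, which ranged between 24496685 and 43948317 reads. Tests are edgeR quasi-likelihood tests over all 19234 genes, a gene is called at a Benjamini-Hochberg adjusted p under 0.05, changes are log2 fold changes with their standard error (SE), and each p measures the spread between these samples. The targeted gene did not mark the knockout in these counts, since Ezh2 lay at 14.5 to 19.5 CPM in EZH2nHom kainate and 11.8 to 15.5 CPM in EZH2nHom saline, against 10.7 to 20.3 CPM in WT kainate and 9.61 to 12.9 CPM in WT saline, in a tissue where other cells keep it, and counts per gene do not show whether the transcript of a deleted allele is still counted. Certain libraries stood apart over the members: EZH2nHom kainate replicate 4 was the lowest of its group for 30 of 46 members, WT kainate replicate 4 for 43, and EZH2nHom saline replicate 5 was the highest of its group for 33. The libraries carry 13 different leading codes in their labels. No code was shared by the genotypes, so code and genotype cannot be told apart. The treatments shared 2 codes, both in WT. In EZH2nHom no code held both treatments, so there code and kainate cannot be told apart either. The share of reads on small structural RNAs was 0.115 to 0.672% in EZH2nHom kainate, 0.147 to 0.676% in EZH2nHom saline, 0.0414 to 0.17% in WT kainate and 0.0282 to 0.0561% in WT saline. Reads of Xist at or over 100 CPM were present in 1 of 4 EZH2nHom kainate, 0 of 5 EZH2nHom saline, 2 of 5 WT kainate and 2 of 5 WT saline libraries.

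**Figure D1:**
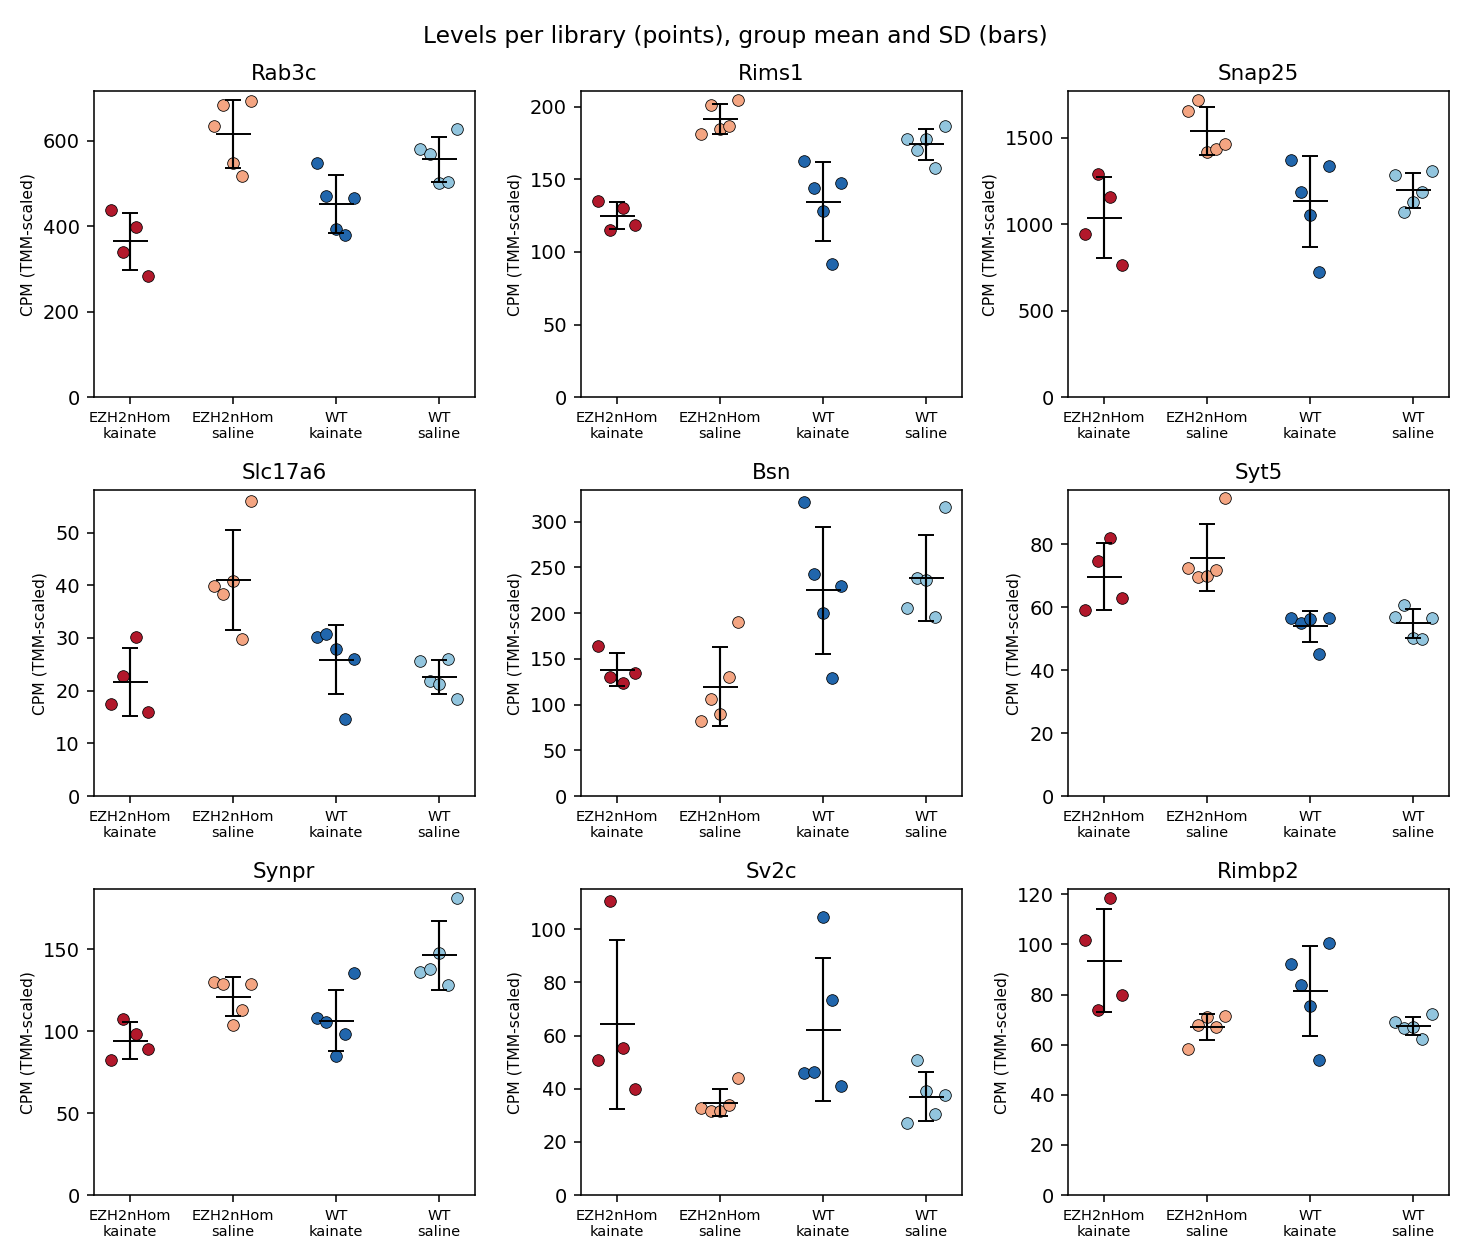
CPM (TMM-scaled) of 9 members in every library, with EZH2nHom kainate, EZH2nHom saline, WT kainate and WT saline from left to right; points are libraries and bars the group mean and SD. Rab3c, Rims1 and Snap25 in EZH2nHom kainate lie wholly below EZH2nHom saline, Bsn in EZH2nHom saline lies wholly below WT saline, and Syt5 in EZH2nHom saline lies wholly above it.

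The promoters of 4 called members are shown as examples, chosen after their values were seen. Rab3c and Rims1 had the smallest p among the falls after kainate in EZH2nHom mice. Bsn was the member lower in EZH2nHom than in WT mice after saline. Unc13a also fell after kainate in EZH2nHom mice and holds the motif parts described next. Each promoter runs from 250 bases before to 50 bases after the start of the gene in RefSeq (build GRCm38.p6). All are read on the minus strand and written 5′ to 3′. Capitals mark CG dinucleotides in Rab3c, Rims1 and Bsn, since Polycomb repressive complex 2 in mammals is known to settle on CG-rich promoters that are not active. In Unc13a, capitals mark matches to 2 parts of the RE1 element of REST, a silencer of neuronal genes. The parts are TTCAGCACC and GGACAGC, here on the opposite strand. They begin 22 and 7 bases past the start of the gene with other bases between them. The parts were searched for separately, and a complete element was not searched for.
Rab3c (chr13:110280157-110280456): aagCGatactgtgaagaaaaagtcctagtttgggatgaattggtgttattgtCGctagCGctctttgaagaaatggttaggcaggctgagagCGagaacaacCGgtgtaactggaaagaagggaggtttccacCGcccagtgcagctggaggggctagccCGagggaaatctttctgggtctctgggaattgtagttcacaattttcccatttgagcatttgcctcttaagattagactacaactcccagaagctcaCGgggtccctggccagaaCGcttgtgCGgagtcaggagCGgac
Rims1 (chr1:22806109-22806408): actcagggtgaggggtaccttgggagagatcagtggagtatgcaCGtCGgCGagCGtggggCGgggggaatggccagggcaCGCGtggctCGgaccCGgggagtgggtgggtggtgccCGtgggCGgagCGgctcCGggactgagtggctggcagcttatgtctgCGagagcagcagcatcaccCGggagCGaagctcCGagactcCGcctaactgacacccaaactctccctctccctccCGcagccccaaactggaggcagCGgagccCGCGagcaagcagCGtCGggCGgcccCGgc
Unc13a (chr8:71671708-71672007): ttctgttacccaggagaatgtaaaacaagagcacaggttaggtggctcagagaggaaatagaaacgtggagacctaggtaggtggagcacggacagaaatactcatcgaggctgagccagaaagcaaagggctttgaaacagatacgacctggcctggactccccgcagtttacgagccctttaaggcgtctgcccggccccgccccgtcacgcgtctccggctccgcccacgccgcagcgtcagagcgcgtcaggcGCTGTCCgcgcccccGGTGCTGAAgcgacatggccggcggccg
Bsn (chr9:108190334-108190633): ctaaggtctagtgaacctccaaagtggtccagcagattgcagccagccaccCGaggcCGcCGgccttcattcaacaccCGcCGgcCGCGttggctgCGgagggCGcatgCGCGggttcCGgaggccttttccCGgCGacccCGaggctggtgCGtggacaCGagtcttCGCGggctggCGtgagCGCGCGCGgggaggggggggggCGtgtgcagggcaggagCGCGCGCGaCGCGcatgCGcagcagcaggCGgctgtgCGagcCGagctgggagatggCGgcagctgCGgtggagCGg

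These windows held 11 CG dinucleotides in Rab3c, 26 in Rims1, 27 in Unc13a and 38 in Bsn. RefSeq gave 48 promoters for 36 of the 46 members, and 52.1% of them were CG-rich, with over 50% G and C and an observed to expected CG ratio over 0.6, against 33.3% of all 32851 promoters in the table. Rab3c fell just short of that definition, with a ratio of 0.591, and Rims1, Unc13a and Bsn met it. The 32851 promoters belong to 27025 genes, more than the 19234 tested here, whereas all members were tested. No share for tested genes alone was taken. On both strands, the RE1 part TTCAGCACC was present in 0.371% of all promoters and in those of Syn1 and Unc13a, and the part GGACAGC was present in 6.56% of all promoters and in those of Rimbp2, Rph3a and Unc13a. The cyclic AMP response element TGACGTCA was present in 1.79% of all promoters and in that of Syn1 alone among the members with a promoter, and the 3 motifs did not overlap each other in any of them. A match is a description of the letters and not of binding.

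The members spanned a wide range of levels in untreated wild-type tissue. Divided by exon length, to allow comparison between genes, mean levels in WT saline ran between 0.705 CPM per kb for Syn3, a synapsin of developing neurons, and 217 CPM per kb for Cplx2, the main complexin of hippocampal principal cells. Snap25, the plasma membrane SNARE, followed at 176 CPM per kb. Syt11, Syt1 and Syp lay close together at 123, 123 and 121 CPM per kb. They encode a synaptotagmin that does not bind calcium, the fast calcium sensor and an abundant vesicle membrane protein. The vesicular glutamate transporter VGLUT1 (Slc17a7), which marks cortical and hippocampal glutamatergic neurons, stood at 81.6 CPM per kb, against 4.19 CPM per kb for VGLUT2 (Slc17a6), which marks thalamic and other subcortical glutamatergic neurons. The forebrain calcium sensor Syt1 was likewise far above Syt2, the sensor of fast hindbrain and parvalbumin terminals, at 2.75 CPM per kb. Lengths come from an annotation of another genome build than the counts, so these per-kb levels are approximate.

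After kainate in EZH2nHom mice, members of each of the 8 roles were lower. Of the 46 members, 16 fell, 2 rose and 28 were not called, against 11.8% of all tested genes lower and 14.3% higher (26.1% in either direction). The 16 that fell were Snap25, Syt1, Syt7, Doc2b, Cplx2, Syp, Synpr, Syngr3, Slc17a6, Rab3a, Rab3c, Rims1, Rims2, Rims3, Unc13a and Amph, and the 2 that rose were Sv2c and Rimbp2. The median change of the members was -0.23 on the log2 scale, beside -0.016 for all tested genes, and 36 of 46 values lay below 0. In CPM, EZH2nHom kainate lay wholly below EZH2nHom saline for 15 members and wholly above it for 1, where 9.23% and 9.93% of all genes did so. The count of members that fell rested on a few libraries: it was 6 without EZH2nHom kainate replicate 4, 7 without EZH2nHom kainate replicate 1 and 10 without EZH2nHom saline replicate 5. The count was 9 when libraries were scaled to a list of 20 pan-neuronal genes, a scaling that moves the median of all genes to 0.18 and that of the members to -0.03. The 7 calls lost under that scaling were those of Cplx2, Doc2b, Syngr3, Synpr, Syp, Syt7 and Unc13a. In whole tissue, fewer cells of a type and less RNA per cell cannot be told apart. Nor can kainate and label code in EZH2nHom, where no code holds both treatments.

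**Figure D2:**
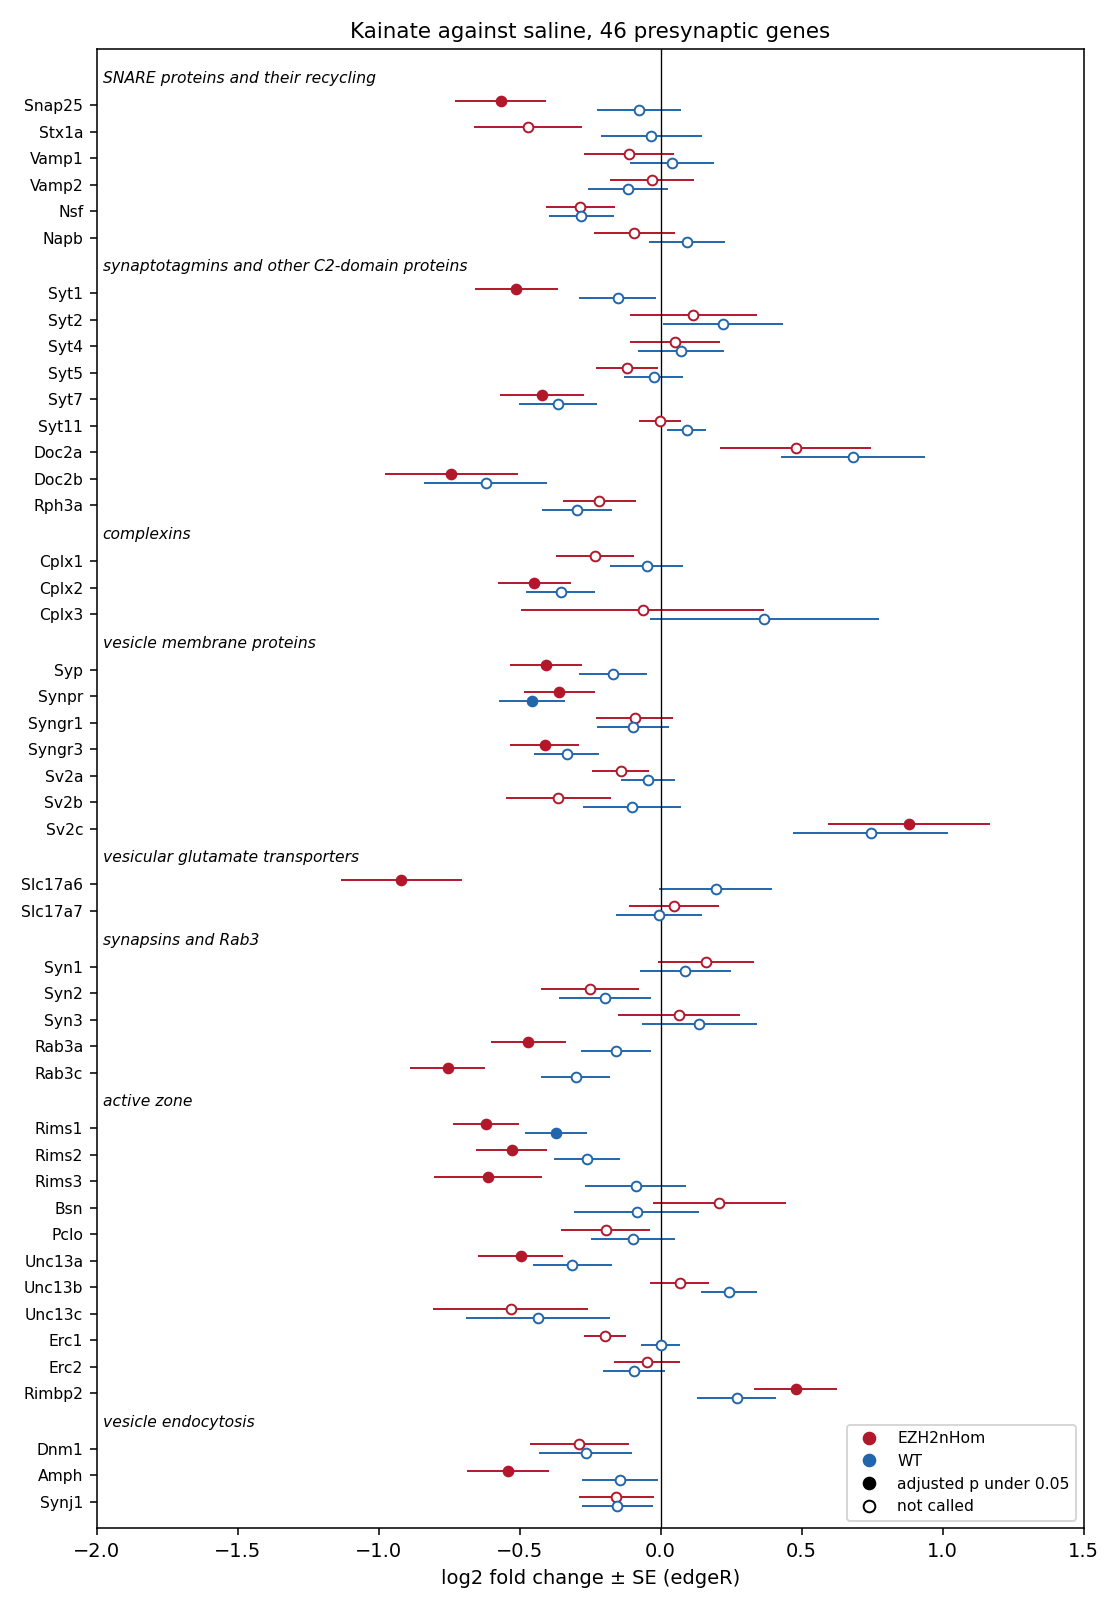
Log2 fold change ± SE (edgeR) of kainate against saline for all 46 members by role, with EZH2nHom in red above WT in blue; filled points passed an adjusted p of 0.05. In EZH2nHom 16 members are filled left of 0 and 2 right of it, and in WT 2 are filled left of 0, with no scaling alternative reversing a filled point.

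Rab3c and Rims1 showed the clearest changes. Rab3c, a Rab3 GTPase that binds vesicles in the GTP state, had 438, 340.0, 398 and 284 CPM in the 4 EZH2nHom kainate libraries, against 634, 685, 548, 519 and 694 CPM in the 5 EZH2nHom saline libraries. The groups did not overlap, and replicate 4 was the lowest of the kainate libraries. Its log2 change was -0.76 ± 0.13 (edgeR adjusted p = 0.000404), and it kept its call under all 21 alternatives. Rab3a, the main Rab3 of forebrain vesicles, had 174, 221, 241 and 173 CPM in EZH2nHom kainate, against 263, 277, 268, 286 and 307 CPM in EZH2nHom saline. Here too the groups were apart, with replicates 1 and 4 lowest after kainate. The change of Rab3a was -0.47 ± 0.13 (edgeR adjusted p = 0.0129), and the call was lost without EZH2nHom kainate replicate 1 or 4. None of the synapsins, which tether vesicles to each other and to actin, was called: Syn1, Syn2 and Syn3 changed by 0.16 ± 0.17, -0.25 ± 0.17 and 0.07 ± 0.22.

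The RIM proteins, which link vesicle-bound Rab3 to calcium channels and Munc13, fell together. Rims1 (RIM1) had 135, 115, 130.3 and 119 CPM in EZH2nHom kainate, against 181, 201, 185, 187 and 205 CPM in EZH2nHom saline. All 4 kainate libraries lay within a narrow band well below the saline libraries, including the otherwise low replicate 4. The log2 change of Rims1 was -0.62 ± 0.12 (edgeR adjusted p = 0.000764), and it passed under all 21 alternatives. Rims2 (RIM2) had 80.6, 112, 92.8 and 69.5 CPM in EZH2nHom kainate, against 131, 130.0, 126, 115 and 138 CPM in EZH2nHom saline, so that its highest kainate library, replicate 2, came close to the lowest saline library. Rims2 changed by -0.53 ± 0.12 (edgeR adjusted p = 0.00409), also under all 21 alternatives. Rims3 (RIM3), a short form without the Rab3-binding part, had 26.1, 46.1, 45 and 25.6 CPM in EZH2nHom kainate, against 51.7, 53.7, 52.7, 48.8 and 65.4 CPM in EZH2nHom saline. For Rims3, replicates 1 and 4 were far below replicates 2 and 3, and the change of -0.61 ± 0.19 (edgeR adjusted p = 0.024) lost its call without either of them.

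Elsewhere in the active zone the members moved apart. Unc13a (Munc13-1), the priming factor of most glutamatergic terminals, had 174, 125, 170.2 and 147 CPM in EZH2nHom kainate, against 185, 230.4, 203, 216 and 253 CPM in EZH2nHom saline, and the groups did not overlap. Its change was -0.50 ± 0.15 (edgeR adjusted p = 0.0193), lost without EZH2nHom kainate replicate 2 or 4 and under the scaling to pan-neuronal genes, where it was -0.30. The other Munc13 genes were not called, with Unc13b at 0.07 ± 0.10 and Unc13c, which is mainly cerebellar, at -0.53 ± 0.27. Rimbp2, which couples RIM to calcium channels, went the other way, with 102, 73.9, 119 and 79.9 CPM in EZH2nHom kainate, against 58.4, 67.9, 71, 67.1 and 71.3 CPM in EZH2nHom saline. All kainate libraries were above all saline libraries, although replicate 2 only narrowly. Rimbp2 changed by 0.48 ± 0.15 (edgeR adjusted p = 0.0213), and its call was lost without EZH2nHom kainate replicate 3 or EZH2nHom saline replicate 1. The large scaffolds Bsn (Bassoon) and Pclo (Piccolo) and the ELKS proteins Erc1 and Erc2 were not called, at 0.21 ± 0.24, -0.20 ± 0.16, -0.20 ± 0.07 and -0.05 ± 0.12.

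Among the fusion proteins, Snap25 had 943, 1288, 1158 and 761 CPM in EZH2nHom kainate, against 1655, 1718, 1419, 1436 and 1462 CPM in EZH2nHom saline. The groups did not overlap, and replicate 4 was lowest. Its change was -0.57 ± 0.16 (edgeR adjusted p = 0.0137), lost without EZH2nHom kainate replicate 1 or 4 and, at -0.43, after correction for GC content and length. The other SNARE genes and their recycling factors were not called: Stx1a (syntaxin) stood at -0.47 ± 0.19, Vamp1 and Vamp2 (synaptobrevins) at -0.11 ± 0.16 and -0.03 ± 0.15, the ATPase Nsf at -0.29 ± 0.12 and its adaptor Napb (beta-SNAP) at -0.09 ± 0.14.

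Of the 9 synaptotagmins and other C2-domain proteins, 3 fell. Syt1 had 812, 1020, 967 and 633 CPM in EZH2nHom kainate, against 1249, 1302, 1196, 1127 and 1240 CPM in EZH2nHom saline, with no overlap and replicate 4 again lowest. Its change was -0.51 ± 0.15 (edgeR adjusted p = 0.0139), lost without EZH2nHom kainate replicate 1 or 4. Syt7, a slow high-affinity sensor, changed by -0.42 ± 0.15 (edgeR adjusted p = 0.0422) and Doc2b, a sensor of spontaneous and asynchronous release, by -0.74 ± 0.24 (edgeR adjusted p = 0.0252), and these calls were lost under 12 and 7 of 21 alternatives, among them without EZH2nHom kainate replicate 1 or EZH2nHom saline replicate 5 for each. Syt2, Syt4, Syt5, Syt11, Doc2a and the Rab3 effector Rph3a (rabphilin) were not called, with changes between -0.22 and 0.48. Among the complexins Cplx2 had 662, 629, 664 and 572 CPM in EZH2nHom kainate, against 786, 969, 767, 919 and 872 CPM in EZH2nHom saline. These 4 kainate libraries were close to each other and below all saline libraries, and the change was -0.45 ± 0.13 (edgeR adjusted p = 0.0151), lost without replicate 4 and under the scaling to pan-neuronal genes, where it was -0.25. Cplx1, which is strong in interneurons, and the sparse Cplx3 were not called, at -0.23 ± 0.14 and -0.06 ± 0.43.

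The vesicle membrane proteins split. Syngr3, a synaptogyrin, had 50.2, 58.8, 57.8 and 43.5 CPM in EZH2nHom kainate, against 60.2, 67.8, 65.7, 73.1 and 82.8 CPM in EZH2nHom saline, which left a small gap between replicate 2 after kainate and replicate 1 after saline. Its change was -0.41 ± 0.12 (edgeR adjusted p = 0.0186), lost without EZH2nHom kainate replicate 1 or 4 or EZH2nHom saline replicate 5. Syp (synaptophysin) and Synpr (synaptoporin, a relative enriched in mossy fibre terminals) fell by 0.41 and 0.36 on the log2 scale, with SE of 0.13 and 0.13 and adjusted p of 0.0254 and 0.0405 in edgeR, and both calls were lost without EZH2nHom kainate replicate 1 or 4 or EZH2nHom saline replicate 5. Synpr passed under 7 of 21 alternatives, the fewest of the 16. Sv2c, an SV2 glycoprotein best known from the basal ganglia, rose, with 50.8, 111, 55.2 and 40.0 CPM in EZH2nHom kainate, against 32.7, 31.7, 31.7, 33.9 and 44 CPM in EZH2nHom saline. Replicate 2 after kainate was far above the others, and replicate 4 lay inside the saline range. Its change of 0.88 ± 0.29 (edgeR adjusted p = 0.0306) was lost without that replicate and without any of EZH2nHom saline replicates 1 to 4. Sv2a, the target of levetiracetam, and Sv2b were not called, at -0.14 ± 0.10 and -0.36 ± 0.19, nor was Syngr1, at -0.09 ± 0.14.

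Of the vesicular glutamate transporters Slc17a6 fell. It had 17.5, 22.8, 30.2 and 16 CPM in EZH2nHom kainate, against 39.8, 38.4, 40.9, 29.8 and 55.9 CPM in EZH2nHom saline. The groups met at replicate 3 after kainate and replicate 4 after saline, and the change of -0.92 ± 0.22 (edgeR adjusted p = 0.00391) held under all 21 alternatives. Slc17a7, far more abundant, changed by 0.05 ± 0.16 and was not called. In the endocytic group, Amph (amphiphysin), which brings dynamin to the neck of the forming vesicle, had 157, 138, 199 and 136 CPM in EZH2nHom kainate, against 225, 241, 215, 223 and 243 CPM in EZH2nHom saline. No library overlapped, and the change was -0.54 ± 0.14 (edgeR adjusted p = 0.00964), held under all 21 alternatives. Dnm1 (dynamin 1) and Synj1 (synaptojanin 1) were not called, at -0.29 ± 0.17 and -0.16 ± 0.13.

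In WT mice the same treatment gave few calls among the members. Kainate lowered 2 of 46 members and raised 0, against 2.57% of all tested genes lower and 9.47% higher. The median of the members was -0.10, beside -0.016 for all tested genes, and 33 of 46 values lay below 0. WT kainate lay wholly below WT saline for 1 member, the rabphilin gene Rph3a, and wholly above it for 0, where 4.63% and 9.79% of all genes did so. The DESeq2 Wald test called 1 member higher and 5 lower, with 2854 of all genes called in either direction, beside 2316 in the main fit. Correction for GC content and length called 1 higher and 6 lower, with 2437 of all genes. Scaled to the pan-neuronal genes, 9 members were lower in WT, with 1618 of all genes called. The scaling also gave 9 lower in EZH2nHom, where it called 4181 of all genes. In WT it moved the median of all genes to -0.06 and that of the members to -0.16.

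Synpr had 108, 106, 85, 98.2 and 135 CPM in the 5 WT kainate libraries, against 136, 138, 148, 128 and 182 CPM in the 5 WT saline libraries. Only replicate 5 after kainate reached into the saline range, and the change was -0.46 ± 0.12 (edgeR adjusted p = 0.015). Rims1 had 163, 144, 128, 91.6 and 147 CPM in WT kainate, against 178, 170.5, 178, 158 and 187 CPM in WT saline, with replicate 4 after kainate far below the others and replicate 1 inside the saline range. Rims1 changed by -0.37 ± 0.11 (edgeR adjusted p = 0.0314), the only member besides Synpr called in both genotypes. Both calls were lost without WT saline replicate 5 or WT kainate replicate 3, and that of Rims1 also without WT saline replicate 1, 2 or 3. Within the label code that holds WT kainate replicates 2, 3 and 4 and WT saline replicate 2, the kainate minus saline differences were -0.52 for Synpr and -0.52 for Rims1 on the log2 scale, and 37 of 46 members lay below 0. Within the code that holds WT kainate replicate 1 and WT saline replicate 4 they were -0.25 for Synpr and 0.04 for Rims1, with 5 of 46 members below 0, and these differences have no test.

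Next in rank in WT, and short of the threshold, were Cplx2 and Syngr3. Cplx2 had 933, 901, 662, 624 and 1060 CPM in WT kainate, against 1059, 1009, 1096, 988 and 1195 CPM in WT saline, and its change was -0.35 ± 0.12 (edgeR adjusted p = 0.0637). Syngr3 had 79.4, 71.3, 61.5, 51 and 72.6 CPM in WT kainate, against 84.4, 76.8, 81.4, 84.1 and 96.8 CPM in WT saline, and its change was -0.33 ± 0.12 (edgeR adjusted p = 0.0672). In both genes replicates 3 and 4 after kainate were low while replicates 1, 2 and 5 lay in or near the saline range. Sv2c was at 0.75 ± 0.27 in WT, with an edgeR adjusted p of 0.0886, so that WT did not pass where EZH2nHom did although the sizes, 0.88 ± 0.29 in EZH2nHom and 0.75 ± 0.27 in WT, were close.

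The difference of the kainate responses, EZH2nHom minus WT, was tested directly, and no member passed, nor did any of the 19234 genes (0% called), with a smallest adjusted p of 0.428 among the members in edgeR. DESeq2 called 0 members and 12 of all genes. A 95% interval was taken from the SE and a normal distribution, which makes it somewhat narrower than the edgeR test implies. In the median it reached 0.40 on either side of a member's difference on the log2 scale before any adjustment. A call after adjustment over all genes needs a larger difference than that. The point estimates lay below 0 for 36 of 46 members, with a median of -0.10, beside -0.016 for all genes; scaled to the pan-neuronal genes the median turned to 0.15, where that of all genes moved to 0.22.

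Ranked by p, Slc17a6 came first and was also the largest in size, at -1.11 ± 0.29 (edgeR adjusted p = 0.428). Its values in WT were 30.1, 30.8, 27.9, 14.6 and 25.9 CPM after kainate, against 25.7, 21.9, 21.2, 26 and 18.4 CPM after saline, and these groups overlapped, with replicate 4 lowest after kainate. The change in WT was 0.19 ± 0.20 (edgeR adjusted p = 0.604), beside the fall of 0.92 in EZH2nHom. Rab3c was next by p, at -0.45 ± 0.18 (edgeR adjusted p = 0.518), with 548, 472, 393, 380.4 and 466 CPM in WT kainate, against 581, 569, 503, 504 and 628 CPM in WT saline. Only WT kainate replicate 1 lay inside the range of WT saline. After it by p, Snap25 differed by -0.49 ± 0.22 (edgeR adjusted p = 0.561), with 1370, 1184, 1056, 721 and 1335 CPM in WT kainate, against 1283, 1073, 1128, 1187 and 1307 CPM in WT saline. Replicate 4 of WT kainate, below every EZH2nHom kainate library, stood far from the rest. The fourth by p was Amph, smaller in size than the -0.52 ± 0.26 of Rims3, at -0.40 ± 0.20 (edgeR adjusted p = 0.583), with 196, 188, 136, 126 and 228 CPM in WT kainate, against 208, 175, 185, 193 and 204 CPM in WT saline, where replicates 3 and 4 after kainate were low and the others were not.

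Without a seizure, the genotypes differed at few members. After saline 2 members were higher in EZH2nHom than in WT and 1 was lower, against 8.33% of all tested genes higher and 5.16% lower (13.5% in either direction). The median over the members was 0.0045, beside 0.017 for all genes, with 23 values above 0 and 23 below. EZH2nHom saline lay wholly above WT saline for 9 members and wholly below it for 4, where 12.9% and 8.42% of all genes did so. A fit to these 10 libraries alone called 9 members higher and 10 lower. It also called 5604 of all genes in either direction, beside 2596 in the main fit. Scaling to the pan-neuronal genes moves the median of all genes to -0.25 and that of the members to -0.26. It called 1 member higher and 18 lower, and 3779 of all genes in either direction.

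Bsn, the active zone scaffold Bassoon, had 82, 106, 90.1, 130.2 and 190.2 CPM in EZH2nHom saline, against 206, 238, 236, 196 and 316 CPM in WT saline. The groups did not overlap, and replicate 5 was the highest of its group in both. Its change was -0.99 ± 0.22 (edgeR adjusted p = 0.00587), and it passed under all 21 alternatives, but it shrank to -0.43 when each library's dependence on GC content and transcript length was removed, for a gene whose longest transcript is 59.8% G and C and 15938 bases long. Pclo, its paralogue, was not called, at -0.21 ± 0.15. Slc17a6 went the other way, with the EZH2nHom saline values given above lying wholly above those of WT saline. The change was 0.86 ± 0.20 (edgeR adjusted p = 0.00747), under all 21 alternatives.

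Thalamic neurons and Cajal-Retzius cells use VGLUT2, and genes of both were examined after the Slc17a6 values had been seen. Of 8 tested thalamic genes 0 were higher and 1, Tcf7l2, was lower in EZH2nHom saline than in WT saline, and the summed level of the thalamic list was 40.7 to 131 CPM in EZH2nHom saline, against 47.0 to 116 CPM in WT saline. Of 4 tested genes of Cajal-Retzius cells 0 were higher or lower, and the summed level was 165 to 227 CPM in EZH2nHom saline, against 222 to 263 CPM in WT saline. The summed level of choroid plexus and ependyma genes varied widely, at 47.2 to 3606 CPM in EZH2nHom saline, against 27.4 to 3865 CPM in WT saline. For kainate, 1 of 8 thalamic genes and 1 of 4 Cajal-Retzius genes were lower in each genotype. Median Cajal-Retzius sums were 162 CPM after kainate and 206 CPM after saline in EZH2nHom, and 202 and 244 CPM in WT. Median thalamic sums were 42.3 CPM after kainate and 92.3 CPM after saline in EZH2nHom, and 50.3 and 106 CPM in WT. Those of choroid plexus and ependyma were 63.0 and 2703 CPM in EZH2nHom, and 233 and 417 CPM in WT, with 0 of 6 genes called. The ranges overlapped in each case. The part of such tissue content in the Slc17a6 changes was not tested.

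Syt5, a calcium-binding synaptotagmin, was the member that differed between the genotypes under both treatments. After saline it had 72.4, 69.7, 69.9, 72 and 94.7 CPM in EZH2nHom, against 56.9, 60.7, 50.1, 50.1 and 56.5 CPM in WT. The groups did not overlap, and EZH2nHom replicate 5 was far above the other 4. The change was 0.46 ± 0.10 (edgeR adjusted p = 0.0055), and it lost its call when scaled to the pan-neuronal genes, where it was 0.19. After kainate Syt5 had 59.1, 74.9, 82 and 63.1 CPM in EZH2nHom, against 56.7, 55, 56.1, 45.3 and 56.6 CPM in WT, again with no overlap. This change was 0.37 ± 0.11 (edgeR adjusted p = 0.0452), and it passed under only 5 of 21 alternatives. Syngr1, a widespread synaptogyrin, ranked next after saline with 224, 217, 252, 222 and 266 CPM in EZH2nHom, against 321, 274, 279, 302 and 332 CPM in WT. Its groups did not overlap, yet the change of -0.35 ± 0.13 (edgeR adjusted p = 0.0758) did not pass.

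**Figure D3:**
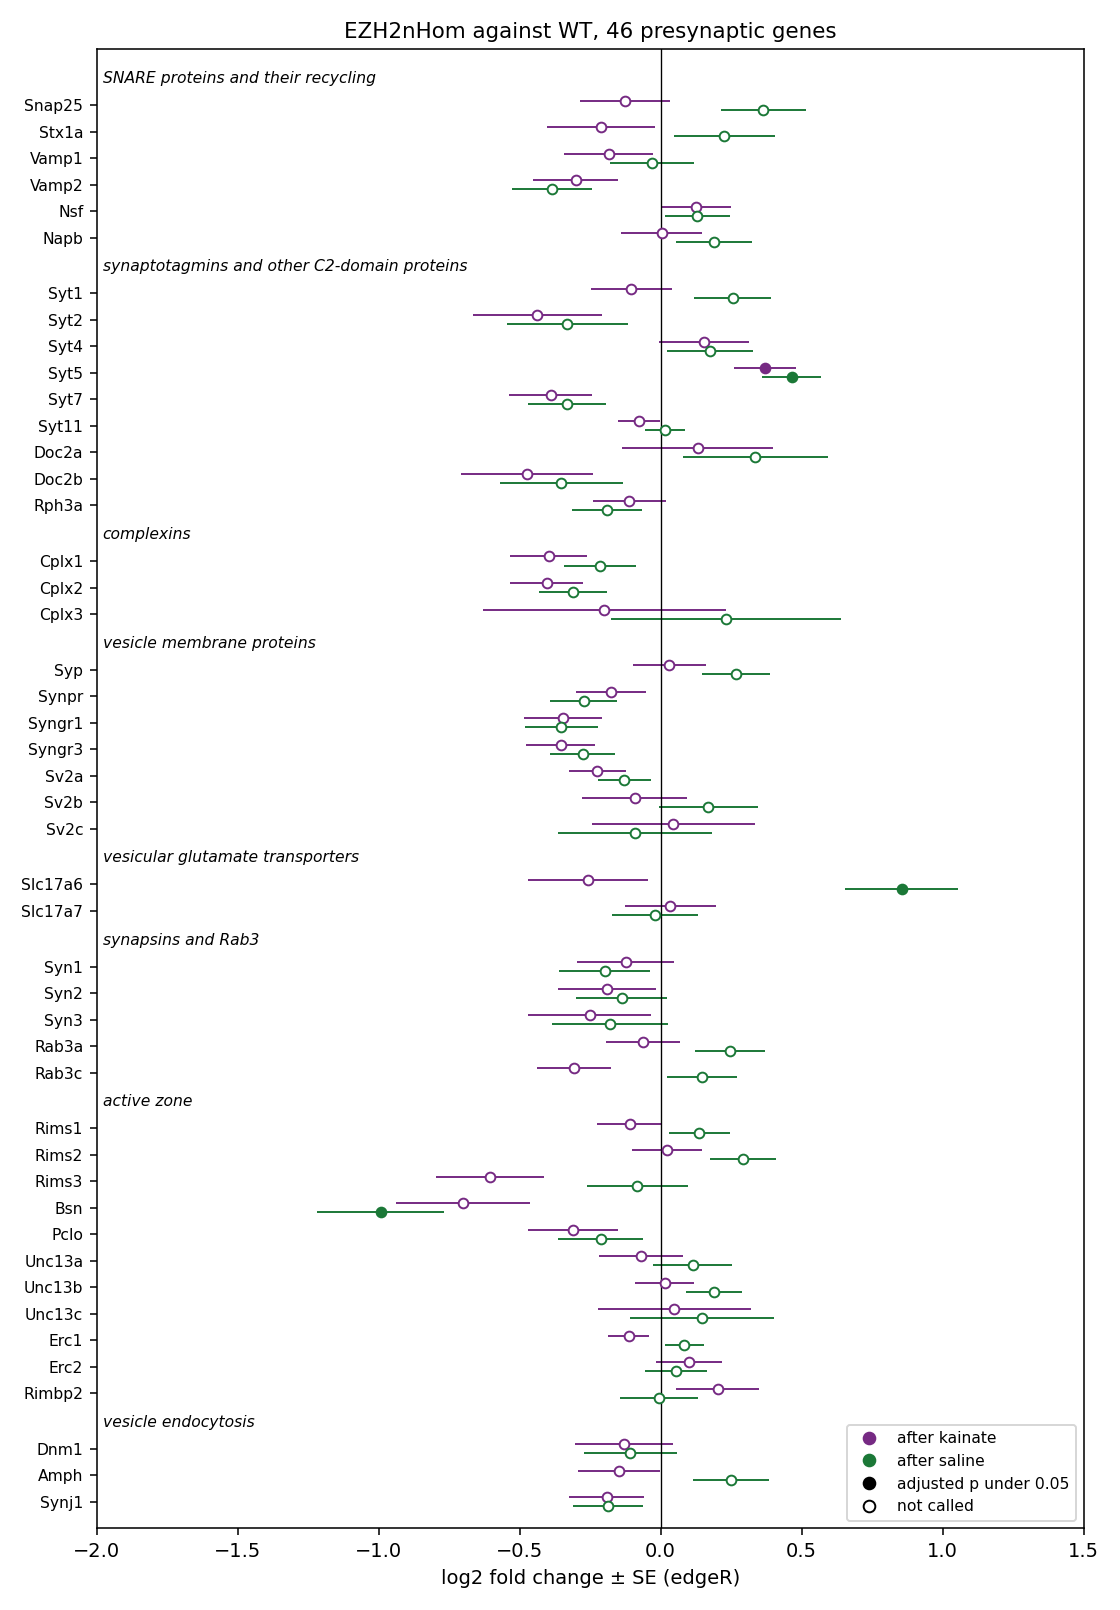
Log2 fold change ± SE (edgeR) of EZH2nHom against WT for all 46 members by role, after kainate in purple above after saline in green; filled points passed an adjusted p of 0.05. Syt5 is filled right of 0 under both treatments, and after saline Slc17a6 is filled right of 0 and Bsn left of it.

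After kainate the genotypes differed at Syt5 alone, the 1 member higher, with 0 lower, against 4.56% of all tested genes higher and 3.04% lower (7.61% in either direction). In CPM, EZH2nHom kainate lay wholly above WT kainate for 1 member and wholly below for 0, where 4.13% and 3.13% of all genes did so. The median was -0.13, beside 0.004 for all genes. WT kainate replicate 4 weighed on this comparison: without it 8 members were lower in EZH2nHom. Calls over all genes rose as well, to 2193 in either direction, beside 1463 with all libraries. Below the threshold, Rims3 had the EZH2nHom kainate values given above, against 69.2, 65.5, 54, 34.7 and 48 CPM in WT kainate, and its change was -0.61 ± 0.19 (edgeR adjusted p = 0.0594). Cplx2 differed by -0.40 ± 0.13 (edgeR adjusted p = 0.0621). Bsn had 164, 130.5, 124 and 135 CPM in EZH2nHom kainate, against 322, 243, 200.5, 129 and 230.0 CPM in WT kainate, and its change was -0.70 ± 0.24 (edgeR adjusted p = 0.0786). In Bsn only WT kainate replicate 4 lay inside the EZH2nHom kainate range, so that the lower level seen after saline was matched in direction but not called.

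Other genes of the presynaptic terminal were tested beside the members. Of 67 further presynaptic genes, 64 were tested, and kainate in EZH2nHom lowered 16 and raised 3, where in WT it lowered 2 and raised 2. The falls with the smallest p in EZH2nHom were those of Lin7a, a scaffold of the CASK complex, at -0.91 ± 0.12 (edgeR adjusted p = 3.19e-05), Sh3gl3 (endophilin A3) at -0.78 ± 0.11 (edgeR adjusted p = 6.99e-05), Stxbp6 (amisyn), a syntaxin binder, at -0.88 ± 0.13 (edgeR adjusted p = 0.000112) and Cadps2, a priming factor of dense-core vesicles, at -0.85 ± 0.14 (edgeR adjusted p = 0.000227). Cadps2 and Stxbp6 also fell in WT, by 0.52 and 0.42 on the log2 scale. Among genes of GABAergic terminals, Gad1, a GABA-synthesizing enzyme, fell in both genotypes, with changes of -0.34 ± 0.11 (edgeR adjusted p = 0.0313) in EZH2nHom and -0.41 ± 0.11 (edgeR adjusted p = 0.0157) in WT. Gad2 was called in EZH2nHom, at -0.64 ± 0.14, and not in WT, at -0.24 ± 0.13, a difference that was not called, and the vesicular transporter Slc32a1 was called in neither genotype. Between genotypes after saline, 5 of the 64 were higher in EZH2nHom, led by Hspa8, the clathrin-uncoating chaperone, at 0.43 ± 0.08 (edgeR adjusted p = 0.000896), and 1, Sh3gl2 (endophilin A1), was lower, at -0.55 ± 0.17 (edgeR adjusted p = 0.0317).

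**Figure D4:**
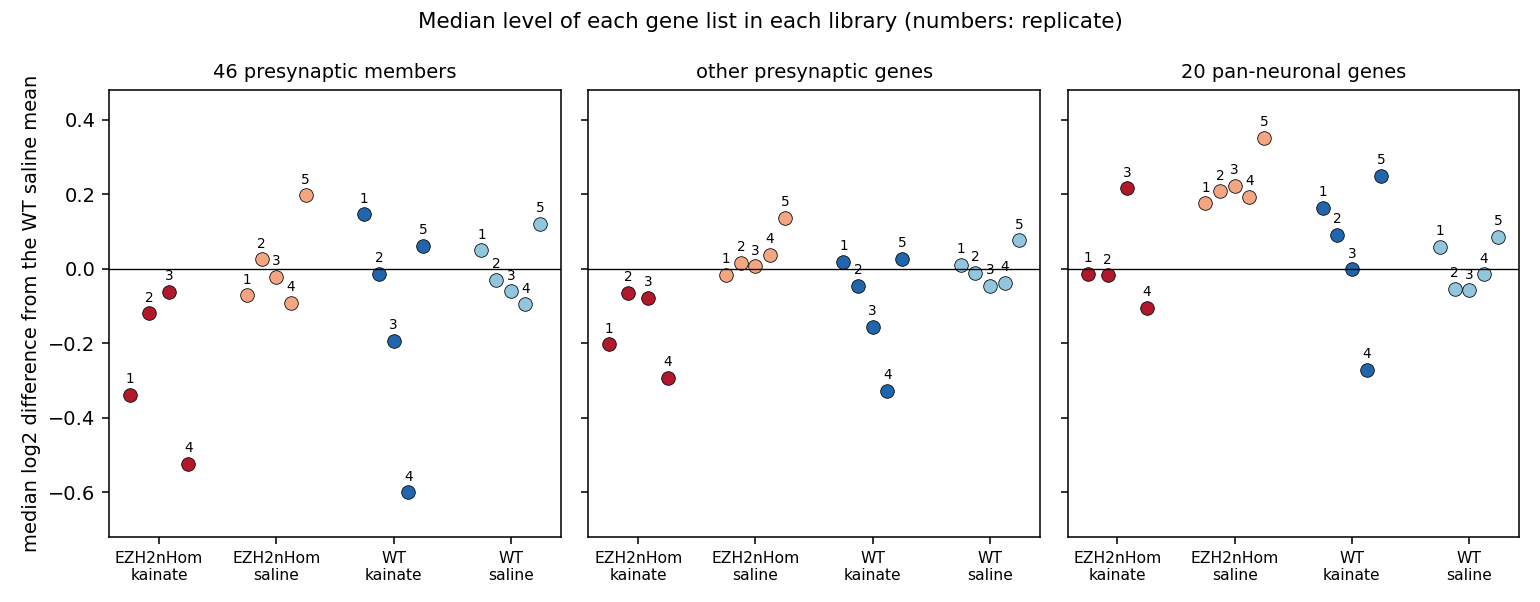
Median log2 difference from the WT saline mean in each library, for the 46 members, the other presynaptic genes and 20 pan-neuronal genes; numbers are replicates and groups run EZH2nHom kainate, EZH2nHom saline, WT kainate, WT saline. EZH2nHom kainate replicate 4 (-0.52) and WT kainate replicate 4 (-0.60) are the lowest for the members, and the pan-neuronal genes lie above 0 in all 5 EZH2nHom saline libraries.

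Markers of other cells moved with the treatment. In EZH2nHom, kainate raised 11 of 12 microglial and 6 of 10 astrocyte genes, whose summed levels were 1762 to 3341 CPM and 7305 to 11491 CPM after kainate, against 430 to 490 CPM and 4853 to 5436 CPM after saline. In WT it raised 12 of 12 microglial and 5 of 10 astrocyte genes, with sums of 1002 to 3164 CPM and 8908 to 11601 CPM after kainate, against 495 to 554 CPM and 6099 to 6760 CPM after saline. Of the oligodendrocyte genes, kainate lowered 4 of 10 and raised 0 in EZH2nHom, with sums of 3745 to 6227 CPM after kainate, against 6238 to 9828 CPM after saline, and in WT it lowered 1 and raised 1, with sums of 4759 to 8626 CPM after kainate, against 5378 to 7470 CPM after saline. Of 5 tested blood and leukocyte genes it raised 3 in EZH2nHom, with sums of 118 to 339 CPM after kainate, against 121 to 294 CPM after saline. In WT it raised 4, with sums of 405 to 1356 CPM after kainate, against 192 to 558 CPM after saline. A large part of these sums was the haemoglobin gene Hbb-bs, with means of 132 and 155 CPM in EZH2nHom and 532 and 207 CPM in WT. The median log2 change of the 5 genes was 2.72 in EZH2nHom and 2.34 in WT. Among the neuronal lists, in EZH2nHom 7 of 20 pan-neuronal genes fell and 1 rose, with 7 of 15 pyramidal, 4 of 10 granule cell and 8 of 12 interneuron genes lower and 1 interneuron gene higher, while in WT 0 of 20 pan-neuronal genes changed, with 1 of 15 pyramidal, 6 of 10 granule cell and 4 of 12 interneuron genes lower and 1 interneuron gene higher. The summed pan-neuronal level was 4809 to 6247 CPM in EZH2nHom kainate and 6196 to 6966 CPM in EZH2nHom saline, against 4455 to 6127 CPM in WT kainate and 5365 to 5844 CPM in WT saline. After saline, 6 of the 20 pan-neuronal genes were higher in EZH2nHom than in WT and 0 lower. The part of these cell type shifts in the member results was not tested beyond the scaling to pan-neuronal genes given above.

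Over the 4 pairwise comparisons 20 members were called at least in 1 and 26 in none. In those 26, which include both synaptobrevins, all 3 synapsins, VGLUT1, Sv2a, Sv2b, Piccolo, both ELKS genes and dynamin 1, changes ranged between -0.53 and 0.48 for kainate in EZH2nHom, between -0.44 and 0.68 for kainate in WT, between -0.39 and 0.34 for genotype after saline and between -0.44 and 0.15 for genotype after kainate. The smallest edgeR adjusted p among them was 0.0548, for Erc1 after kainate in EZH2nHom. The median SE of a member's change was between 0.139 and 0.148 in these comparisons, so that a missing call does not show that a level stayed the same.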

How the data were processed

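RNA was taken from frozen right hippocampus, and libraries were made after depletion of cytoplasmic and mitochondrial ribosomal RNA, per the labels' protocols. The authors deposited whole-number read counts per gene for 19 libraries; the aligner and counter are not given in the sources used here, and the submitters' processing notes name the mm39 build, DESeq and DESeq2. The authors' deposited table of gene symbols also holds mean signal, log2 fold changes, score and p-value columns, which were not used beyond the symbols.

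Counts were tested with edgeR 4.0.16 in R 4.3.3 (limma 3.58.1 loaded with it; DESeq2 1.42.0 as an alternative; Python 3.11.15): TMM factors, genes kept by filterByExpr, a robust quasi-likelihood fit with a mean per group over all 19 libraries, and Benjamini-Hochberg adjustment over 19234 genes. The SE is the size of the change divided by the square root of F. Library totals are read counts, and no antisense or strand setting is stated. The fit was tested on simulated counts. Exon lengths and GC content come from GENCODE vM21 (build GRCm38), and promoters from RefSeq (GRCm38.p6). Members given in every library were those with the smallest p in each comparison, with Sv2c given besides, and other members are given by family. The members and gene lists were chosen with earlier results of these data known. Alternatives covered scaling, filters, covariates, threshold, test, block and each library left out. 1 gene of a comparison list is not reported here.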

Additional observations from a re-analysis of the deposited data

Results flagged for a closer look

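For 17 members given library by library, 68 groups were examined for a library far from the rest of its group. Sv2c, also given library by library, was not among the 17 and was not examined. Chance marks about 1 group in 20, and 2 were marked, both for Syt5. EZH2nHom saline replicate 5 stood at 94.65 CPM, with the other 4 libraries between 69.67 and 72.35 CPM. WT kainate replicate 4 stood at 45.29 CPM, with the other 4 between 55.05 and 56.7 CPM. These are the libraries that were the highest of their group for 33 members and the lowest of their group for 43 members.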

How the results depend on the processing

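No called member reversed its direction under any alternative. Counts below are members called. Leaving out 1 library at a time gave 0 to 2 higher and 0 to 5 lower for kainate in WT, 0 to 3 higher and 6 to 17 lower for kainate in EZH2nHom, 2 higher and 1 to 2 lower for EZH2nHom against WT after saline, 0 to 1 higher and 0 to 8 lower after kainate, and 0 for the difference of responses. At an adjusted p under 0.01 there were 0 lower in WT, 0 higher and 5 lower in EZH2nHom and 0 higher for genotype after kainate. Without a filter there was 1 higher in EZH2nHom and 0 higher for genotype after kainate, and with at least 1 CPM in at least 4 libraries 4 lower in WT. With the structural RNA share as a covariate there was 1 higher in EZH2nHom, 4 higher for genotype after saline, and 0 higher and 1 lower after kainate. Scaled to the pan-neuronal list there were 9 lower in WT, 9 lower in EZH2nHom, 1 higher and 18 lower for genotype after saline, and 0 higher and 5 lower after kainate. Fitting only the groups compared gave 9 higher and 10 lower for genotype after saline and 0 higher after kainate. DESeq2 gave 1 higher and 5 lower in WT, 3 lower for genotype after saline and 3 lower after kainate. Chosen after seeing the data, GC content and length correction gave 1 higher and 6 lower in WT, 5 higher for genotype after saline and 0 higher after kainate, and an Xist covariate gave 0 higher for genotype after kainate. The cause was not tested.

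The main fit did not pair samples by the titles' replicate numbers. In WT, 4 of 5 kainate libraries correlated best, in their deviations from the group mean, with the same-numbered saline library. In EZH2nHom 1 of 4 did so. Same-numbered libraries had correlations of deviations between 0.096 and 0.36 across treatments in WT and between -0.046 and 0.12 in EZH2nHom. The count columns of EZH2nHom kainate are numbered 2 to 5 instead, and by those numbers the lowest was -0.076 against EZH2nHom saline and -0.34 against WT kainate; a replicate block on them, chosen after seeing the data, gave 0 higher and 14 lower for kainate in EZH2nHom and 0 higher for genotype after kainate. The replicate block on the titles' numbers gave 4 lower in WT and 3 higher and 14 lower in EZH2nHom. For genotype it gave 3 higher and 4 lower after saline, and 0 higher and 1 lower after kainate. DESeq2 size factors in place of TMM moved no count of members by over 1.5 times. Over all genes, the fit to only the groups compared called 5604 for genotype after saline and 4 after kainate, beside 2596 and 1463. The scaling to pan-neuronal genes called 3779 and 416 in these comparisons. The difference of responses called 12 genes in DESeq2 and 1 with the block, beside 0.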
